A study of Rattus norvegicus with 12 samples.

Results

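Aerobic and facultative Gram-positive bacteria of 6 families were described in the faeces of rats, by their share of the 16S rRNA gene reads of each library. The families are Corynebacteriaceae, Staphylococcaceae, Aerococcaceae, Carnobacteriaceae, Dermabacteraceae and Brevibacteriaceae. Their members are the amplicon sequence variants (ASVs, exact sequences inferred from the reads) whose deposited lineage names one of these 6 families, which gave 137 of the 7240 ASVs of the series in 15 genus-level features. Corynebacteriaceae held 54 of them, Staphylococcaceae 40, Carnobacteriaceae 24, Aerococcaceae 12, Brevibacteriaceae 4 and Dermabacteraceae 3. The families were chosen by their measured shares in these same libraries, because they were high in part of the SAH and SAH+Tet libraries. Their levels are therefore a description, and the contrast between libraries that chose them is not a finding. Model fits over all genera are given near the end for completeness, and nothing about the families is read from them.

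The series holds 12 libraries, 3 under each of the labels Sham, SAH, SAH+Tet and, with ABX added, SAH+Tet+ABX. As these labels are commonly read, Sham is sham surgery, SAH the subarachnoid haemorrhage model, Tet the alkaloid tetrandrine and ABX antibiotics, and the last 3 groups share the haemorrhage while the last 2 also share Tet. The sources used here do not give strain, age, drugs, doses, sampling times or housing, and a further treatment label, alike in all samples, names a cell differentiation protocol that does not match faeces and was not used. The labels do not say that each library is a separate animal, so p-values measure only the spread between these libraries, which may be technical.

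Corynebacterium, Brevibacterium and Brachybacterium are Actinobacteriota known from skin, from cheese rinds and from soil and animal housing. Staphylococcus and Jeotgalicoccus are Firmicutes cocci of skin, mucosa and farm dust, and Aerococcus, Facklamia, Globicatella, Atopostipes, Jeotgalibaca and Carnobacterium are lactic acid bacteria or their relatives. Most of these genera grow in air, whereas the bulk of the rodent gut community consists of strict anaerobes such as Muribaculaceae and Lachnospiraceae. Oxygen use was not measured here, and several of the genera are facultative anaerobes, so the word aerobic describes the families as textbooks do.

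Libraries held 211450 to 531426 reads and fell into 2 depth classes on either side of 300000 reads. The lower one held 5 libraries (each SAH+Tet+ABX library, SAH 1 and SAH+Tet 3) and the higher one 7. Where 0 reads were found, the true share could be as high as 0.00056% in the deepest library and 0.0014% in the shallowest, which is 3 reads of the total. Such limits, like the intervals given below, describe counting error alone, since copies made by PCR are not separate molecules. All 7 gut families used to check the material were present in every library and together made up 61.3% to 87.5% of its reads, and 0 ASVs were named Chloroplast or Mitochondria.

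The 6 families together took 12.5% of the reads of SAH 2, 11.4% of SAH 3, 13.4% of SAH+Tet 1 and 20.4% of SAH+Tet 2. They took 0.0632% of SAH 1 and 0.0224% of SAH+Tet 3. In the Sham libraries they took 0.0119%, 0.0231% and 0.0160%, and in the SAH+Tet+ABX libraries 0.0662%, 0.0196% and 0.00980%. The SAH and SAH+Tet groups were thus each split: 2 of their 3 libraries were high, and the remaining library lay, like every Sham and SAH+Tet+ABX library, between 0.00980% and 0.0662%. The mean share was 0.0170% ± 0.00566 (SD, n = 3) for Sham and 7.99% ± 6.89 (SD, n = 3) for SAH. It was 11.3% ± 10.4 (SD, n = 3) for SAH+Tet and 0.0319% ± 0.0301 (SD, n = 3) for SAH+Tet+ABX. In SAH and SAH+Tet the SD is nearly as large as the mean, so the group mean describes none of their libraries. Every value is a share of the reads, so more cells of these families and less DNA of all others cannot be told apart.

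The split runs along sequencing depth within the SAH and SAH+Tet groups. SAH 1 (248285 reads) and SAH+Tet 3 (227301 reads) are the libraries of the lower depth class in their groups. All 3 Sham libraries, with 495890, 498430 and 519889 reads, belong to the higher class and had low shares. The 4 high libraries held 66436, 51221, 61422 and 105549 reads of the families, in the order SAH 2, SAH 3, SAH+Tet 1 and SAH+Tet 2, against 24 to 157 reads in each of the others. The part of depth in this split was not tested.

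**Figure D1:**
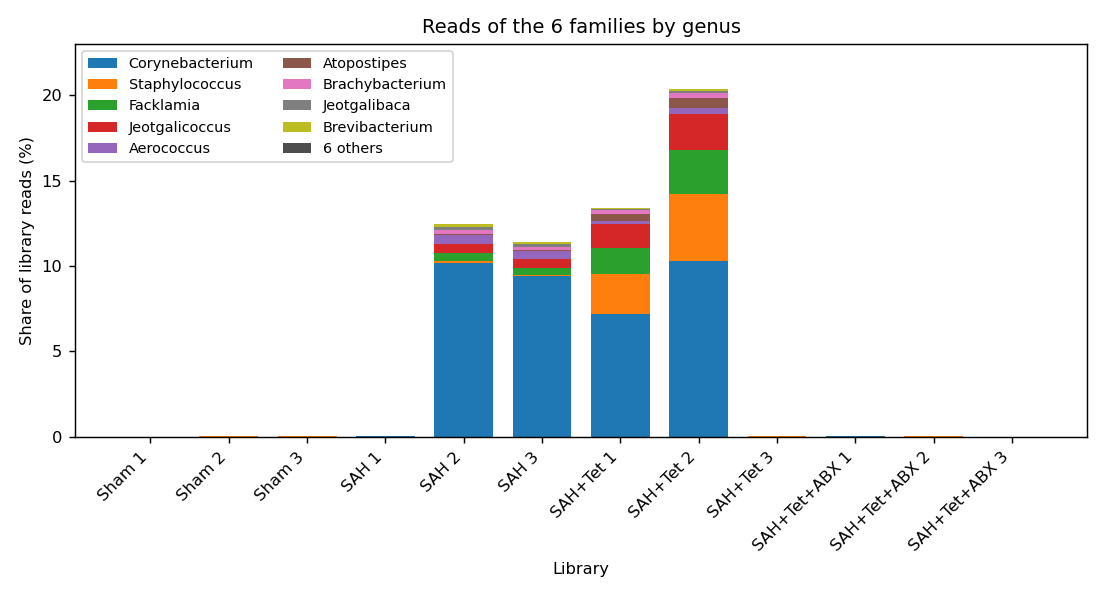
Stacked bars of the share of library reads (%, from 0) taken by the member genera in each of the 12 libraries, 1 bar a library and 1 colour a genus. The bars of SAH 2, SAH 3, SAH+Tet 1 and SAH+Tet 2 reach 12.5%, 11.4%, 13.4% and 20.4%, and those of the other 8 libraries cannot be seen at this scale.

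Corynebacterium, a club-shaped rod whose cell wall carries mycolic acids, made up most of the family reads, with 53 of the 54 ASVs of Corynebacteriaceae. It took 10.2% of the reads of SAH 2, 9.40% of SAH 3, 7.19% of SAH+Tet 1 and 10.3% of SAH+Tet 2. It took 0.0451% of SAH 1 and 0.0106% of SAH+Tet 3. Its share was 0.00423%, 0.0112% and 0.00808% in the Sham libraries and 0.0137%, 0.00299% and 0.00327% in the SAH+Tet+ABX libraries. Corynebacterium thus had reads in all 12 libraries, and its shares in the high libraries of SAH and SAH+Tet overlapped each other.

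Brachybacterium, the genus of all 3 Dermabacteraceae ASVs, took 0.225% of SAH 2, 0.186% of SAH 3, 0.203% of SAH+Tet 1 and 0.292% of SAH+Tet 2. Brevibacterium, the genus of all 4 Brevibacteriaceae ASVs and known for sulfur aromas on washed-rind cheese, took 0.158%, 0.132%, 0.0651% and 0.0927% of the same libraries. Both genera had 0 reads in each of the other 8 libraries. Brevibacterium was thus higher in SAH 2 and SAH 3 than in SAH+Tet 1 and SAH+Tet 2, whereas the Brachybacterium shares overlapped.

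Staphylococcus, the genus of skin and mucosal cocci, also had reads in all 12 libraries, but its levels in the high libraries differed by group. It took 2.36% of SAH+Tet 1 and 3.92% of SAH+Tet 2, and only 0.0802% of SAH 2 and 0.0758% of SAH 3. SAH 1 held 0.0109% and SAH+Tet 3 0.00704%. The Sham libraries held 0.00706%, 0.0112% and 0.00616%, and the SAH+Tet+ABX libraries 0.0279%, 0.0154% and 0.00653%. The Staphylococcus shares of SAH 2 and SAH 3 thus lay nearer to the SAH+Tet+ABX libraries than to the high SAH+Tet libraries.

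Jeotgalicoccus, a salt-tolerant relative of Staphylococcus, took 0.538% of SAH 2, 0.496% of SAH 3, 1.38% of SAH+Tet 1 and 2.09% of SAH+Tet 2. It took 0.00322% of SAH 1, 0.00264% of SAH+Tet 3 and 0.000946% of SAH+Tet+ABX 1, and had 0 reads in the other 5 libraries. Facklamia, a catalase-negative coccus of Aerococcaceae, took 0.476%, 0.414%, 1.53% and 2.59% of the 4 high libraries in the same order. Outside them it was found in SAH 1 at 0.00201% and SAH+Tet 3 at 0.000880%, with 0 reads in every Sham and SAH+Tet+ABX library. Both genera were higher in each of the high SAH+Tet libraries than in either high SAH library.

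Aerococcus, which names Aerococcaceae and includes urinary tract species, went the other way. It took 0.528% of SAH 2 and 0.477% of SAH 3, against 0.157% of SAH+Tet 1 and 0.325% of SAH+Tet 2. It was found at 0.00201% in SAH 1 and 0.000577% in Sham 3, and had 0 reads in the other 6 libraries. Globicatella, the remaining genus of the family, did not share the split: it peaked at 0.0236% (50 reads) in SAH+Tet+ABX 1 and was between 0.000580% and 0.00290% in the other 9 libraries with reads.

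Carnobacteriaceae, lactic acid bacteria that include cold-tolerant food species, had reads only in the 4 high libraries. Atopostipes took 0.0753% of SAH 2, 0.0570% of SAH 3, 0.438% of SAH+Tet 1 and 0.624% of SAH+Tet 2. Jeotgalibaca took 0.170%, 0.169%, 0.0609% and 0.125% in the same order, so these relatives ranked the groups in opposite ways. Carnobacterium was found at 0.0135% in SAH+Tet 1 and 0.0157% in SAH+Tet 2 and had 0 reads in the other 10 libraries. Lacticigenium stayed between 0.00178% and 0.0143% in the high libraries. The 3 features without a genus name reached at most 0.00502%.

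**Figure D2:**
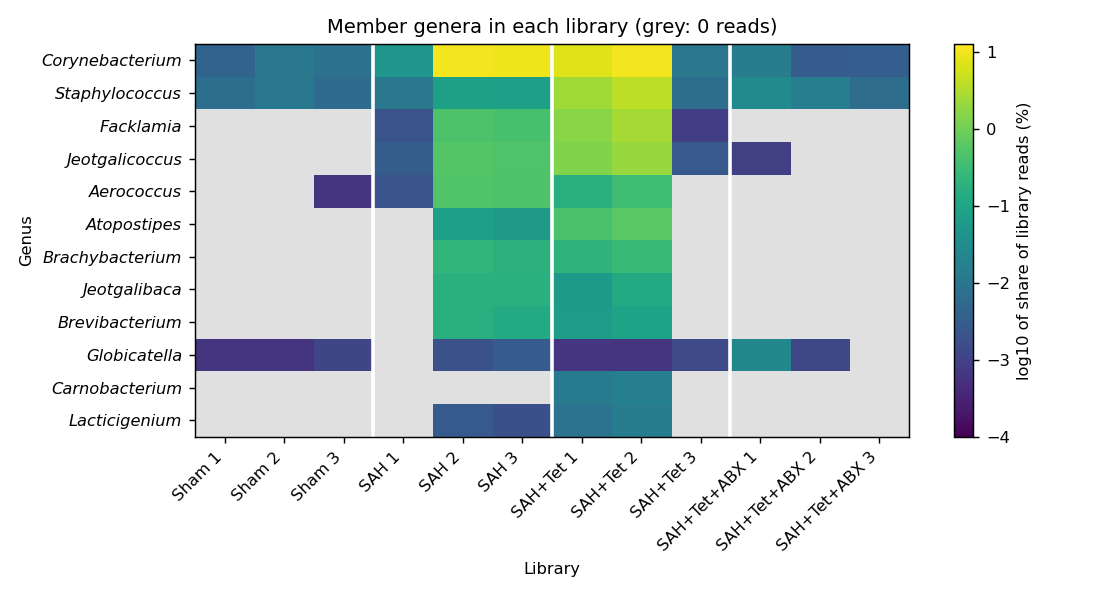
Heat map of the 12 member genera that reach 0.01% in at least 1 library, with libraries in columns grouped by label and colour giving the log10 of the share of library reads (%). Grey cells have 0 reads; Corynebacterium and Staphylococcus are the genera with a colour in all 12 columns, and Globicatella is brightest in SAH+Tet+ABX 1 at 0.0236%.

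Expressed as a share of the family reads alone, the high libraries had 2 different make-ups. Corynebacterium was 82.0% of these reads in SAH 2 and 82.4% in SAH 3, but 53.6% in SAH+Tet 1 and 50.6% in SAH+Tet 2. Staphylococcus was 0.641% and 0.664% in the SAH libraries, and 17.6% and 19.2% in the SAH+Tet libraries. Facklamia was 3.81% and 3.62% against 11.4% and 12.7%, Jeotgalicoccus 4.30% and 4.35% against 10.3% and 10.2%, and Aerococcus 4.22% and 4.18% against 1.17% and 1.59%. For each of these 5 genera the libraries of 1 group lay close to each other and apart from those of the other group. As parts of 1 total these shares do not move independently, and genera outside the families were not counted in this way. With 2 such libraries in a group, selected on their family share, the difference was not tested.

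In the libraries with few family reads the make-up was again different. Staphylococcus was 59.3%, 48.7% and 38.6% of the 59, 115 and 83 family reads of the Sham libraries, and Corynebacterium 35.6%, 48.7% and 50.6%. SAH 1 held 71.3% Corynebacterium and 17.2% Staphylococcus among 157 reads, and SAH+Tet 3 held 47.1% and 31.4% among 51 reads. In the SAH+Tet+ABX libraries Staphylococcus was 42.1%, 78.3% and 66.7% of 140, 46 and 24 reads. These shares rest on few reads and are coarse.

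ASVs are numbered within their genus by mean share over the 12 libraries, and no sequences were used. Of the 137 ASVs, 22 reached 0.1% in at least 1 library, in 9 genera. Another 27 reached 0.01%, and 88 stayed below it in every library. In all, 85 were found in a single library, and 15 carried a species field. For some of these 15 the field read only uncultured bacterium. Of the 22 leading ASVs, 15 were higher in both SAH+Tet 1 and SAH+Tet 2 than in both SAH 2 and SAH 3, and 7 were lower in both. Over all ASVs of the series that reached 0.1% in at least 1 of these 4 libraries, 59.1% were separated in this way in either direction. Outside the families they were 56.2% of 315, with 76 higher in the SAH+Tet libraries and the rest of those separated lower. Separation of these libraries was thus common outside the families too.

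Corynebacterium ASV 1 led in all 4 high libraries, at 5.23% of the reads of SAH 2, 4.76% of SAH 3, 5.71% of SAH+Tet 1 and 8.16% of SAH+Tet 2. Corynebacterium ASV 2 took 3.23% of SAH 2 and 2.96% of SAH 3 but 0.10% of SAH+Tet 1 and 0.154% of SAH+Tet 2. Within the genus, ASV 1 made up 51.0% (95% Clopper-Pearson interval 50.6 to 51.4) of the reads in SAH 2, 50.6% (50.2 to 51.1) in SAH 3, 79.4% (78.9 to 79.8) in SAH+Tet 1 and 78.9% (78.6 to 79.2) in SAH+Tet 2. ASV 2 made up 31.5%, 31.5%, 1.40% and 1.49% of the genus in the same order. The steadier total of Corynebacterium therefore covers ASVs in very different proportions.

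The species field of 5 ASVs named Corynebacterium stationis, of which Corynebacterium ASV 3 and 4 were among the 22 leading ASVs. Corynebacterium ASV 3 took 0.638% and 0.590% of SAH 2 and SAH 3, and 0.822% and 1.17% of SAH+Tet 1 and SAH+Tet 2. Corynebacterium ASV 4 took 1.06% and 1.00%, against 0.426% and 0.643%, so these ASVs with the same species name differed in direction. Corynebacterium ASV 5, named Corynebacterium urealyticum after a urease-forming species, had 0 reads in SAH 2 and SAH 3 and took 0.0539% and 0.0859% of SAH+Tet 1 and SAH+Tet 2. It was below the level of the 22 leading ASVs and was singled out after its values were seen.

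Staphylococcus ASV 1, named Staphylococcus lentus, a species of farm animals and rodents, was 1.36% of SAH+Tet 1 and 2.15% of SAH+Tet 2. It had 0 reads in the other 10 libraries. Staphylococcus ASV 2 was 0.820% and 1.44% of the same libraries and 0.0380% and 0.0363% of SAH 2 and SAH 3. Staphylococcus ASV 3 was 0.0910% and 0.214% of the SAH+Tet libraries, 0.00452% of SAH 2 and 0% of SAH 3.

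Jeotgalicoccus ASV 1 had 0 reads in every SAH library and took 0.782% of SAH+Tet 1, 1.17% of SAH+Tet 2 and 0.00264% of SAH+Tet 3, where it had 6 reads. Jeotgalicoccus ASV 2 was shared, at 0.367% of SAH 2, 0.334% of SAH 3, 0.441% of SAH+Tet 1 and 0.684% of SAH+Tet 2. Jeotgalicoccus ASV 3 was 0.135%, 0.123%, 0.150% and 0.229% in the same order. The genus thus differed between the groups mainly by its first ASV.

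Facklamia was divided among its ASVs as well. Facklamia ASV 1 took 0.116% of SAH 2, 0.10% of SAH 3, 0.988% of SAH+Tet 1 and 1.73% of SAH+Tet 2. Facklamia ASV 2 took 0.00245%, 0.00156%, 0.421% and 0.596% of them, and Facklamia ASV 4 took 0.0329%, 0.0221%, 0.106% and 0.206%. Facklamia ASV 3 took 0.310% of SAH 2 and 0.279% of SAH 3, had 0 reads in SAH+Tet 1 and took 0.00464% of SAH+Tet 2. ASVs 1, 2 and 4 were thus higher in the SAH+Tet libraries and ASV 3 in the SAH libraries. Aerococcus ASV 1, which held nearly all reads of its genus, took 0.528%, 0.477%, 0.157% and 0.314%.

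Brachybacterium, whose total overlapped between the groups, was made of ASVs with different patterns. Brachybacterium ASV 1 took 0.225% of SAH 2, 0.186% of SAH 3, 0.0876% of SAH+Tet 1 and 0.112% of SAH+Tet 2. Brachybacterium ASV 2 had 0 reads in SAH 2 and SAH 3 and took 0.113% and 0.180% of SAH+Tet 1 and SAH+Tet 2. Brevibacterium ASV 1 took 0.105%, 0.0865%, 0.0541% and 0.0762% in the same order.

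Among Carnobacteriaceae, Atopostipes ASV 1 took 0.0324% of SAH 2, 0.0272% of SAH 3, 0.147% of SAH+Tet 1 and 0.205% of SAH+Tet 2. Atopostipes ASV 2 had 0.00358%, 0%, 0.159% and 0.223%, and Atopostipes ASV 3 had 0 reads in both SAH libraries and 0.117% and 0.164% in the SAH+Tet libraries. All 3 were thus higher in the SAH+Tet libraries. Jeotgalibaca ASV 1, whose species field names Trichococcus, took 0.170%, 0.169%, 0.0609% and 0.125%, and its genus and species fields do not match each other.

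**Figure D3:**
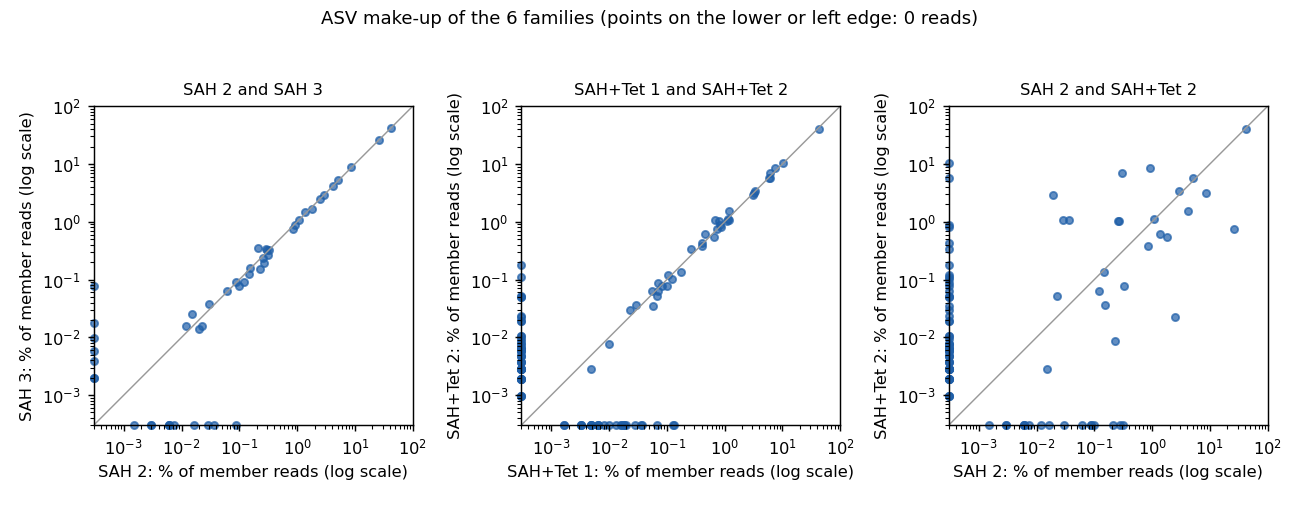
Make-up of the family reads (%, out of all reads of the 6 families in a library) by ASV in SAH 2, SAH 3, SAH+Tet 1 and SAH+Tet 2. Each plot shows every family ASV with reads in either of its libraries. Leading ASVs with at least 100 reads in both libraries lie near the diagonal in the first 2 plots. In the third, Corynebacterium ASV 2 is at 25.9% in SAH 2 and 0.756% in SAH+Tet 2. Staphylococcus ASV 1 is at 0 and 10.5%.

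The presence of ASVs was compared as well. SAH 2 or SAH 3 held 49 of the 137 ASVs and SAH+Tet 1 or SAH+Tet 2 held 105. They had 27 in common, which is 55.1% of the former and 25.7% of the latter, and 10 ASVs were in none of these 4 libraries. Of the other ASVs, SAH 2 or SAH 3 held 2869 and SAH+Tet 1 or SAH+Tet 2 held 3433, with 1583 in common, which is 55.2% and 46.1%. Of the 22 leading ASVs, 4 had 0 reads in SAH 2 and SAH 3 (Staphylococcus ASV 1, Jeotgalicoccus ASV 1, Brachybacterium ASV 2 and Atopostipes ASV 3). None of the 22 had 0 reads in both SAH+Tet 1 and SAH+Tet 2. All 3 Sham libraries lacked 17 of the 22, all 3 SAH+Tet+ABX libraries 18, SAH 1 16 and SAH+Tet 3 18, in part because these libraries held few family reads. The 22 reached their level in the high libraries by which the families were chosen. Such absences were not counted over the other ASVs, so nothing about the families is read from them.

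The likeness of 2 libraries was measured by the overlap of their ASV make-ups, in percent, where 100 means the same proportions. Over the family ASVs, SAH 2 and SAH 3 overlapped by 99.0%, and SAH+Tet 1 and SAH+Tet 2 by 95.5%. Across the groups the overlap was 59.8% for SAH 2 with SAH+Tet 1, 58.2% for SAH 2 with SAH+Tet 2, 59.7% for SAH 3 with SAH+Tet 1 and 58.1% for SAH 3 with SAH+Tet 2. Over all other ASVs the same libraries overlapped less, by 61.0% for SAH 2 with SAH 3, 54.8% for SAH+Tet 1 with SAH+Tet 2, and 35.7% to 45.2% across the groups. Over these other ASVs the low library SAH 1 overlapped by 61.7% with SAH 2 and by 37.3% with SAH 3. SAH+Tet 3 overlapped by 44.5% with SAH+Tet 1 and by 40.9% with SAH+Tet 2. SAH 2 was thus about as close to SAH 1 as to SAH 3 outside the families. All overlaps are a description of single pairs of libraries.

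The ratios of single ASVs tell how close the profiles were. Of the leading family ASVs with at least 100 reads in both SAH 2 and SAH 3, all 14 kept a share of the family reads within 1.5-fold of each other, with ratios of 0.902 to 1.09. Of the 21 in SAH+Tet 1 and SAH+Tet 2, 20 did, with ratios of 0.837 to 1.54. Between SAH 2 and SAH+Tet 1, 4 of 14 ASVs lay within 1.5-fold and 4 differed by more than 4-fold. The profiles of SAH 2 and SAH 3 still differed by more than counting error, with a chi-square per degree of freedom of 5.72 against 94.4 over the other ASVs. For SAH+Tet 1 and SAH+Tet 2 these values were 21.9 and 91.1.

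Such close overlap was not limited to these families. Within families with at least 1000 reads in both SAH 2 and SAH 3, the 4 of the 6 families that qualified overlapped by 94.3% to 99.4%, and 28 other families by 29.9% to 100%, with a median of 75.1%. Of those 28, 7 overlapped by more than the lowest of the 4, among them Pseudomonadaceae at 99.6%, Planococcaceae at 98.9% and Bifidobacteriaceae at 98.4%. The 100%, also among the 7, is that of the p-2534-18B5 gut group, whose 1 ASV fixes the overlap in advance. Between SAH+Tet 1 and SAH+Tet 2 the 4 families overlapped by 92.7% to 98.9% and 23 others by 27.6% to 98.0%, with a median of 58.3%. Pseudomonadaceae at 98.0% and Peptostreptococcaceae at 93.5% were above the lowest of the 4. Families differ in their number of ASVs, from which this overlap is not free: Lachnospiraceae, with 693 ASVs, overlapped by 29.9% between SAH 2 and SAH 3, and Corynebacteriaceae, with 25, by 99.4%.

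**Figure D4:**
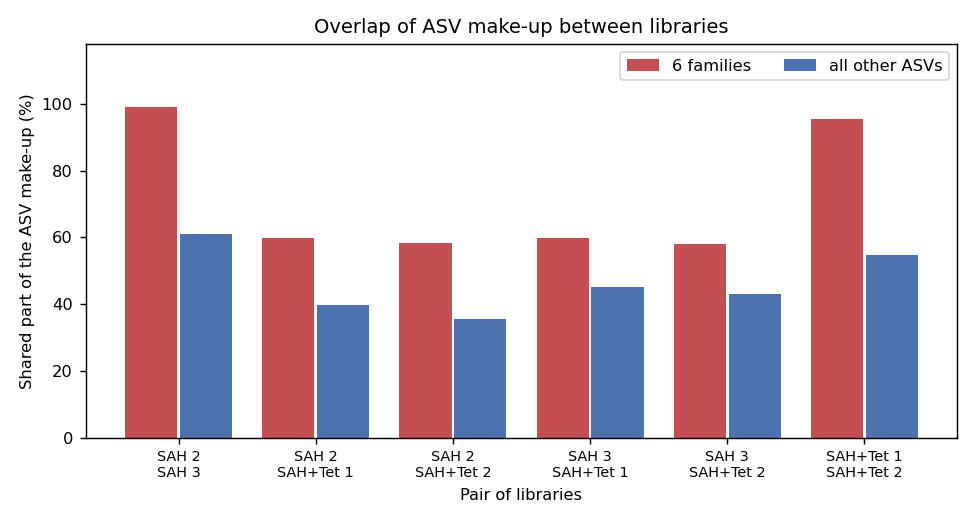
Overlap of make-up (%) between pairs of libraries, for the ASVs of the 6 families and for all other ASVs. The overlap of family ASVs is 99.0% for SAH 2 with SAH 3 and 95.5% for SAH+Tet 1 with SAH+Tet 2, against 61.0% and 54.8% over the other ASVs.

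The few family reads of the low libraries came partly from the leading ASVs of the high libraries and partly from others, such as Corynebacterium ASV 9, which was below 0.1% in every library. In SAH 1 the leading ones were Corynebacterium ASV 2 with 33 reads, Corynebacterium ASV 1 with 30 and Corynebacterium ASV 9 with 23. In SAH+Tet 3 they were Corynebacterium ASV 1 with 14 reads, Corynebacterium ASV 9 with 10 and Staphylococcus ASV 10 with 9. Staphylococcus ASV 2 had 7 there and Jeotgalicoccus ASV 1 had 6. The make-up of SAH 1 overlapped by 47.5% with SAH 2 and with SAH 3, and by 35.8% and 36.6% with SAH+Tet 1 and SAH+Tet 2. That of SAH+Tet 3 overlapped by 43.5% and 44.1% with SAH+Tet 1 and SAH+Tet 2, and by 28.7% with each of SAH 2 and SAH 3. SAH 1 and SAH+Tet 3 overlapped with each other by 54.1%, more than either did with any high library. On 157 and 51 reads these overlaps are coarse.

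The Sham and SAH+Tet+ABX libraries were led by ASVs other than Corynebacterium ASV 1, which led in the high libraries. ASVs also found in the high libraries still held 100%, 69.6% and 74.7% of the family reads of the Sham libraries. In the SAH+Tet+ABX libraries they held 82.9%, 100% and 33.3%. Staphylococcus ASV 4 had 19, 24 and 21 reads in the Sham libraries, the most in Sham 1 and Sham 2 and level with Corynebacterium ASV 9 at 21 reads in Sham 3. Globicatella ASV 1 led in SAH+Tet+ABX 1 with 50 reads, Staphylococcus ASV 2 in SAH+Tet+ABX 2 with 36 of its 46 reads, and Staphylococcus ASV 11 in SAH+Tet+ABX 3 with 16 of its 24 reads.

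Other genera that grow in air were looked up from 3 lists. Of 13 further Firmicutes genera 9 were found, of 18 Actinobacteriota 9 and of 17 Gram-negative genera 11. Among the Firmicutes, Kurthia, a rod of meat and dung, took 0.906% of SAH 2 and 0.864% of SAH 3, 0.000580% of SAH+Tet 2 and 0 reads of the other 9 libraries. Weissella, a plant-associated lactic acid bacterium, took 0.522% and 0.465% of SAH 2 and SAH 3 but 0.00699% and 0.0147% of SAH+Tet 1 and SAH+Tet 2. Enterococcus took 0.141% and 0.158% against 0.00764% and 0.00580%, and Pediococcus 0.0913% and 0.0971% against 0.0264% and 0.0182%. These genera were higher in SAH 2 and SAH 3. Streptococcus, an oral and gut genus, lay between 0.0718% and 0.456% over the 12 libraries and was highest in SAH+Tet+ABX 1.

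Others were found mainly in the high SAH+Tet libraries. Oceanobacillus took 0.0452% of SAH+Tet 1 and 0.0553% of SAH+Tet 2, and its share was 0.000880% in SAH+Tet 3 and 0 in the remaining libraries. Among the Actinobacteriota, Enteractinococcus took 0.10% and 0.147% of SAH+Tet 1 and SAH+Tet 2 and had 0 reads elsewhere, while its relative Glutamicibacter took 0.0965% of SAH 2 and 0.0693% of SAH 3 and had 0 reads elsewhere. Rothia, an oral genus, lay between 0.00939% and 0.0771% and Rhodococcus between 0.00725% and 0.0152% over the 12 libraries. Neither Rothia nor Rhodococcus followed the split.

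The Gram-negative genera were mixed as well. Psychrobacter, a cold-tolerant genus, took 0.00583% of SAH 2, 0.00267% of SAH 3, 0.0869% of SAH+Tet 1 and 0.145% of SAH+Tet 2, with 0 reads in the other 8. Sphingobacterium took 0.0425% of SAH 2 and 0.0312% of SAH 3 and had 0 reads elsewhere. Escherichia-Shigella, of Enterobacteriaceae, took 0.183% of SAH 2 and 0.238% of SAH 3, against 0.0218% and 0.0151% of SAH+Tet 1 and SAH+Tet 2. Proteus, also on the list, went the other way, with 0.00376% and 0.00245% against 0.0103% and 0.0101%. Pseudomonas lay between 0.663% and 1.14% in every library and Rodentibacter, a rodent airway genus, between 0 and 0.0172%, and neither followed the split. Of these lists, 5 Firmicutes, 3 Actinobacteriota and 5 Gram-negative genera passed the filter on reads and were tested by edgeR. With Benjamini-Hochberg adjustment, 0 of them were called in the comparisons among Sham, SAH and SAH+Tet, beside 0 of all 192 genera. Kurthia, Oceanobacillus, Enteractinococcus, Glutamicibacter and Sphingobacterium did not have 10 reads in at least 3 libraries and were not tested. For SAH+Tet+ABX against SAH+Tet, 1 of 5 Firmicutes, 0 of 3 Actinobacteriota and 1 of 5 Gram-negative genera tested were called, each lower. Over all genera 74 of 200 (37.0%) were called there.

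**Figure D5:**
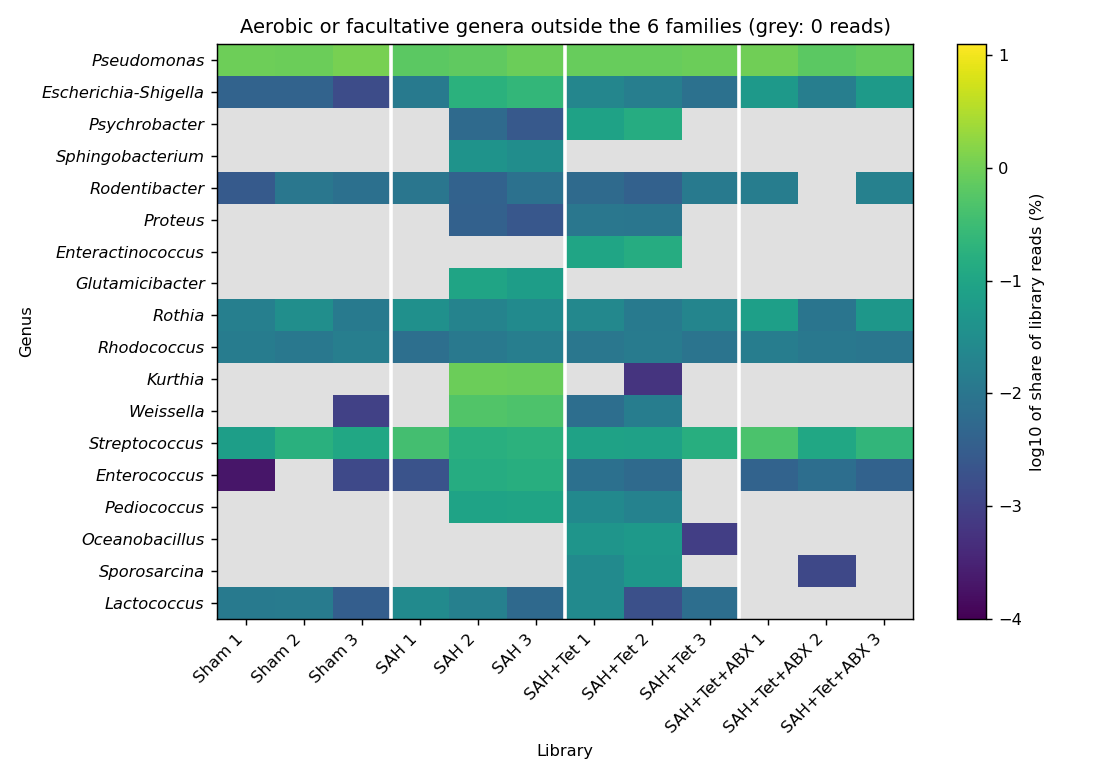
Heat map of genera from the 3 lists of other air-growing bacteria, with the log10 of the share of library reads (%) as colour, 1 column a library and grey for 0 reads. Kurthia and Glutamicibacter are bright in SAH 2 and SAH 3, Enteractinococcus and Oceanobacillus in SAH+Tet 1 and SAH+Tet 2, and Pseudomonas is even over all 12.

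Among 189 genera outside the 6 families, those spread over the 12 libraries most like the summed family share were ranked by the overlap of the spreads, whose median was 34.7%. Tissierella, an anaerobe that ferments amino acids, overlapped by 94.1%. It took 0.00414% of SAH 2, 0.00312% of SAH 3, 0.00459% of SAH+Tet 1 and 0.00542% of SAH+Tet 2 and had 0 reads in the other 8 libraries. Proteus, a urease-forming enterobacterium, overlapped by 81.8%, with 0.00376%, 0.00245%, 0.0103% and 0.0101% in the same order and 0 reads in the other 8. These were the 2 genera above 80%. Flaviflexus (73.0%), Prevotella (71.3%), Rikenellaceae RC9 gut group (70.4%), Paenalcaligenes (68.7%), an unnamed genus of Planococcaceae (68.4%), an unnamed genus of Microbacteriaceae (65.6%), Prevotellaceae UCG-004 (65.4%) and an unnamed genus of Bacillaceae (63.6%) followed. Strict anaerobes were thus among the 10 most alike, but a high rank did not mean a low share in Sham. Prevotella took 1.12%, 1.01% and 0.279% of the Sham libraries. It took 1.73% of SAH 2, 0.946% of SAH 3, 2.08% of SAH+Tet 1 and 1.55% of SAH+Tet 2. Rikenellaceae RC9 gut group was highest in Sham 2, at 0.275%.

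Genus counts were fitted with edgeR's quasi-likelihood test, with Benjamini-Hochberg adjustment over all genera tested. The choice of the families used these contrasts, so the results for the families are given as a description and nothing is read from them. A fit of the 2 groups alone left 2 family genera to test in each comparison with Sham. Most family genera thus passed the filter on reads only by pooling the high SAH and SAH+Tet libraries. For SAH against Sham, 0 of 10 family genera and 0 of all 192 genera (0%) had an adjusted p under 0.05, and 9 and 55 had an unadjusted p under it. DESeq2 called 8 of the 10 and 50 of the 192 (26.0%), and limma on centred log-ratios 1 and 9 (4.69%). The median fitted log2 fold change was 11.40 over the family genera and 0.16 over all genera. Scaling by library totals in place of TMM moved the latter to -0.11, and that of SAH+Tet against SAH from 0.07 to 0.36. Of the 10, 7 had 0 reads in a group, and with those set at 3 reads per library the median log2 ratio of mean shares was 7.71.

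For SAH+Tet against Sham, which shares its Sham libraries with that comparison, edgeR called 0 of 10 family genera and 0 of 192 (0%), with 10 and 33 at an unadjusted p under 0.05. DESeq2 called 10 and 31 (16.1%), and limma 0 and 0 (0%). The median ratio with genera at 0 set to 3 reads per library was 8.67 on the log2 scale. With the depth class as a term in the edgeR fit, 9 of 10 family genera and 29 of all 192 (15.1%) were called for SAH against Sham, and 10 of 10 and 25 of 192 (13.0%) for SAH+Tet against Sham. The higher depth class alone gave 10 of 10 in each, with 26 of all 187 (13.9%) and 24 of 187 (12.8%), but that class holds exactly the SAH and SAH+Tet libraries in which the families were high. The depth term has the same limit, since the lower class in this fit is SAH 1 and SAH+Tet 3, the low libraries of their groups. In both fits depth class thus sets apart the libraries that the choice of the families did, and nothing is read from these counts.

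For SAH+Tet against SAH, which shares the SAH libraries, edgeR called 0 of 10 family genera and 0 of 192 (0%), with 1 and 37 at an unadjusted p under 0.05. DESeq2 called 1 and 31 (16.1%), and limma 0 and 1 (0.521%). The 1 genus was Staphylococcus, with a log2 fold change of 5.11 by edgeR. The median over the family genera was 0.88 and over all genera 0.07. Leaving out SAH+Tet 3 gave 1 call among all 191 genera in this comparison and 1 in SAH+Tet against Sham, each a family genus.

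For SAH+Tet+ABX against SAH+Tet, edgeR called 5 of 11 family genera, all lower, and 74 of all 200 genera (37.0%), 18 of them higher. The 5 were Corynebacterium at a log2 fold change of -9.63, Staphylococcus at -6.78, Jeotgalicoccus at -11.62, Facklamia at -15.28 and Aerococcus at -12.19. Facklamia and Aerococcus had 0 reads in all SAH+Tet+ABX libraries, so their fitted folds are no bounds. Globicatella, at 3.28, was not called. In a fit of these 2 groups alone, 2 family genera passed the filter of 10 reads in 3 libraries. Most of the 11 thus passed it only with the reads of SAH 2 or SAH 3. The median was -10.82 over the family genera and -1.46 over all genera, and -6.98 with the 7 genera at 0 in a group set to 3 reads per library. SAH+Tet 3 already lay within the range of the SAH+Tet+ABX libraries at 0.0224%. With SAH+Tet 3 left out 10 family genera and 83 of all 200 were called, and with SAH 1 left out 9 and 85 of 198. With SAH 2, SAH 3, SAH+Tet 1 or SAH+Tet 2 left out 3 family genera were called, beside 62 of 191, 65 of 192, 54 of 197 and 51 of 196 over all genera. With SAH+Tet+ABX 1 left out 2 were, beside 63 of 193, and with SAH+Tet+ABX 2 or 3 left out 0 were, beside 45 of 194 and 51 of 194. The fit with depth class as a term called 0 and 48 of 200, and the fit with a replicate block 2 and 47 of 200.

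What the families add to the differences between the groups was measured on the rest of the community, which the choice of members did not use. With the 6 families left out, the groups accounted for 53.1% of the Bray-Curtis variation between libraries, at an exact permutation p of 6.49e-05, the smallest that 15400 arrangements can give. With the families kept the share was 52.9%. For SAH against Sham the groups accounted for 46.9% of the variation without the families and 47.2% with them, for SAH+Tet against Sham 36.3% and 37.9%, and for SAH+Tet against SAH 40.9% and 37.8%. They accounted for 42.7% and 42.8% when the SAH+Tet+ABX libraries were set against SAH+Tet. Each of these pairs had an exact p of 0.1, the smallest that 3 libraries against 3 allow. Leaving the families out thus lowered this share slightly in both comparisons with Sham and raised it for SAH+Tet against SAH.

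ASV richness without the families, at a common depth, was 2264 ± 62.4 ASVs for Sham, 1736 ± 515 for SAH, 2035 ± 622 for SAH+Tet and 569 ± 120 for SAH+Tet+ABX (SD, n = 3 each). SAH 1 at 1155 and SAH+Tet 3 at 1319, the libraries of their groups that were low in the families and in depth, stood below the other SAH and SAH+Tet libraries at 1917 to 2441. Over the 4 groups richness differed at an exact permutation p of 0.0101, and at 0.0112 with the families kept. The Shannon index without the families was 5.57 ± 0.169, 5.38 ± 0.546, 5.65 ± 0.416 and 4.43 ± 0.472 in the same order (SD, n = 3 each). Its exact permutation p over the groups was 0.0384, but 0.174 when arrangements were kept within depth class. Leaving out the families raised the Shannon index of SAH 2 from 5.49 to 5.58, of SAH 3 from 5.71 to 5.80, of SAH+Tet 1 from 5.89 to 6.00 and of SAH+Tet 2 from 5.56 to 5.76. In the other 8 libraries it moved by no more than 0.01.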

How the data were processed

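Microbial DNA of rat faeces was amplified at the 16S rRNA gene and sequenced on an Illumina platform, per the labels' protocols. The authors deposited raw counts, the number of reads of each ASV in each library, with a lineage per ASV. The submitters' processing notes name fastp and cutadapt, with no version. Which denoiser, primers and taxonomy database were used, on which ASV numbers and names depend, is not given in the sources used here. The series table was identical to the per-sample tables in all 12 libraries.

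Members, and the lists of other genera, were chosen with earlier results of these data known. Shares are reads over the library total, uncorrected for 16S gene copies. Genus features with at least 10 reads in at least 3 libraries entered edgeR's quasi-likelihood test with TMM scaling (edgeR 4.0.16, R 4.3.3, Eukaryota left out), from 1 fit of the 9 libraries without ABX, or of all 12 for SAH+Tet+ABX, with Benjamini-Hochberg adjustment over all genera. DESeq2 1.42.0 and limma 3.58.1 were alternatives, as were scaling, filter, libraries in the fit, replicate block, depth class and leaving out each library. The higher depth class alone was added after seeing the data. Overlaps are sums of the smaller of 2 proportions. Bray-Curtis variation, richness and the Shannon index were tested by exact permutation over libraries. The edgeR fit was tested on simulated data. Genera reaching 0.01% and ASVs reaching 0.1% in a library, up to 20, were to be named, with the 10 most alike genera outside the families. All 22 ASVs that reached 0.1% are described, 2 more than that limit.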

Additional observations from a re-analysis of the deposited data

How the results depend on the processing

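For the family genera called by edgeR, alternatives moved these counts. SAH against Sham (0 of 10) gave 8 with DESeq2, 1 with limma, 9 with depth class as a term, 10 in the higher depth class alone, and 0 to 0 with each library left out. SAH+Tet against SAH (0) gave 1 with DESeq2, 1 in the higher class, and 0 to 1 with a library left out. SAH+Tet against Sham (0) gave 10 with DESeq2, with the depth term and in the higher class, and 0 to 1 with a library left out. SAH+Tet+ABX against SAH+Tet (5 of 11) gave 9 with DESeq2, 2 with limma, 10 of 15 without a filter, 2 of 2 tested in a fit of the 2 groups alone, 0 with the depth term, 2 with the replicate block and 0 to 10 with a library left out. Over all genera this last comparison called 98 of 200 with DESeq2, 75 of 200 with limma, 84 of 393 without a filter and 50 of 141 in the 2 groups alone. For SAH+Tet against SAH the depth term called 0 of 192 and the higher class 1 of 187. The Shannon p of 0.0384 became 0.0694 with the replicate block, 0.174 within depth class and 0.0228 to 0.12 with a library left out: it was above 0.05 without any Sham library, SAH 2, SAH+Tet 1 or 2, or SAH+Tet+ABX 1 or 2. Bray-Curtis p (at most 0.00174) and richness p (at most 0.0437) stayed below 0.05 in every alternative. Correlations of same-numbered libraries ran from -0.59 to 0.49. With so few libraries in a group they cannot tell whether the numbers pair the libraries, and the labels do not say. Traces of 24 to 157 family reads limit what the low libraries show, and no blank library was used here.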
